A study of Mus musculus with 15 samples.

Results

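The histocompatibility (H2) genes of the mouse and the genes that help them present antigen were examined for trimethylation of histone H3 at lysine 4 (H3K4me3), the mark of active gene starts, in liver. Members were chosen by name: all protein-coding genes of the GENCODE M21 annotation (mm10) with a symbol starting H2-, plus B2m, Tap1, Tap2, Tapbp, Cd74, Nlrc5 and Ciita. This gave 41 genes of 21755 protein-coding genes on chromosomes 1 to 19 and X. They comprise 24 class I heavy chain genes (the classical H2-K1 and H2-D1 and 22 non-classical genes), 5 class I helpers, 9 class II genes and 2 class II helpers. The last gene, H2-Ke6, is a dehydrogenase gene (also called Hsd17b8) that carries the prefix only because it lies in the same region. Of the 41 genes, 37 lie on chromosome 17, and B2m, Nlrc5, Ciita and Cd74 lie on chromosomes 2, 8, 16 and 18.

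Class I molecules consist of a heavy chain and the B2m light chain and are carried by nearly all nucleated cells. The transporter made of Tap1 and Tap2 brings peptides to them, tapasin (Tapbp) holds the empty molecule beside the transporter, and Nlrc5 is a coactivator of class I transcription. Class II molecules pair an alpha with a beta chain (H2-Aa with H2-Ab1, or an H2-E pair), need the invariant chain Cd74, and are loaded with the help of H2-DM, which H2-O restrains. Their master coactivator is Ciita. In liver, hepatocytes carry class I, whereas class II belongs mainly to Kupffer cells, dendritic cells, B cells and, at a lower level, the sinusoidal endothelium.

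The study fed female C57BL/6 mice (C57BL/6J in the study's methods), randomised from 6 litters at 3 months of age, for 10 months on a standard diet (SD), caloric restriction (CR), a high-fat diet (HF), yellow corn (YD) or purple corn (RD), and their age is labelled as 12 months. There were 3 mice per diet and 1 library per mouse, 15 in all, with no other treatment and no transgene, and litters were not assigned to mice in the labels. Chromatin came from fixed, paraffin-embedded whole liver by PAT-ChIP-seq, and each library is a list of enriched regions, called islands by the peak caller SICER, with a score. A gene was counted as marked when an island lay within 1 kb of any of its annotated start sites. In whole liver, more cells of a type and more marked copies per cell cannot be told apart.

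The lists held 7825 to 33752 islands (median 14454), with a median island width of 1200 to 2800 bp. The reads behind them, recovered from the steps of the score, numbered 5589269 to 13978169 in 14 libraries, and in YD mouse 1 the recovered number did not come out whole. Between 17.5% and 54.6% of all protein-coding genes were marked in a library, lowest in YD mouse 3 and highest in HF mouse 1. Of 10 hepatocyte marker genes, 6 to 10 were marked in every library, Alb being the least often marked at 8 libraries. Island calls can vary with depth and background, and each count of members is therefore given beside that of all genes.

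Promoters were taken from RefSeq (GRCm38.p6) as the 250 bases before and 50 after an annotated start, and 34 of the 41 genes had an entry. Those without were Nlrc5, Ciita, Tap2, H2-Q1, H2-T24, Cd74 and H2-Ab1. The following are shown because the presence of islands divided the genes by promoter type: H2-K1, H2-D1, H2-Q10 and B2m were marked in most libraries, the H2-DMa entry lies in, or within 1 kb of, an island in every library, and H2-Aa and H2-Eb1 are class II genes whose promoters were marked in 1 library or none. Each reads 5′ to 3′ on the strand of the gene. Capitals mark matches, on either strand, to the κB letters of class I enhancer A (GGGGATTCC), interferon-response letters in 2 spacings (GAANNGAAA and GAAANNGAA), a CRE-like core (TGACG) and an inverted CCAAT box (ATTGG).
H2-K1 (chr17:34000298-34000597, minus strand): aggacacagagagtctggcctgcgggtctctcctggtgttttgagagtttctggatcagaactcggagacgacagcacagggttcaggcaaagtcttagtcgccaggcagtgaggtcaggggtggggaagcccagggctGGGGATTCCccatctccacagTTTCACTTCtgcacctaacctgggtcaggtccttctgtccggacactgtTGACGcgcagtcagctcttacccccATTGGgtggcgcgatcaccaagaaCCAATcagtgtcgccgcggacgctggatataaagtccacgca
H2-D1 (chr17:35262844-35263143, plus strand): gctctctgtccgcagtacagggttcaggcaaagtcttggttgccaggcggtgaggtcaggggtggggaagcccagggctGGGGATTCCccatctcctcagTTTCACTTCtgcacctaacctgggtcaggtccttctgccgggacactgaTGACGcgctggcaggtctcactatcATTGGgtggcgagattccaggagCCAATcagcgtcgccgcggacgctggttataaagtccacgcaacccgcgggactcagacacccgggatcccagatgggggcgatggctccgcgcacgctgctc
H2-Q10 (chr17:35469839-35470138, plus strand): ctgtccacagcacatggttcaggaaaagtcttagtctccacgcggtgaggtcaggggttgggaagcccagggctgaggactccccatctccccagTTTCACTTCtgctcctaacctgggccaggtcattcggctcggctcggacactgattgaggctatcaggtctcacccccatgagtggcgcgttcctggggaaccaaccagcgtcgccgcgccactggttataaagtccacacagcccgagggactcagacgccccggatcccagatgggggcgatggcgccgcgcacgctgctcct
B2m (chr2:122147437-122147736, plus strand): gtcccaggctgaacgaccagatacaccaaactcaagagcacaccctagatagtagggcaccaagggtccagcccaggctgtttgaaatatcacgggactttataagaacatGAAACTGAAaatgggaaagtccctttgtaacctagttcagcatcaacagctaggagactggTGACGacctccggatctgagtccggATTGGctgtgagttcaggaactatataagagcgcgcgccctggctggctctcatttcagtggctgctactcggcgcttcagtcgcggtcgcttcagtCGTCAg
H2-DMa (chr17:34122582-34122881, plus strand): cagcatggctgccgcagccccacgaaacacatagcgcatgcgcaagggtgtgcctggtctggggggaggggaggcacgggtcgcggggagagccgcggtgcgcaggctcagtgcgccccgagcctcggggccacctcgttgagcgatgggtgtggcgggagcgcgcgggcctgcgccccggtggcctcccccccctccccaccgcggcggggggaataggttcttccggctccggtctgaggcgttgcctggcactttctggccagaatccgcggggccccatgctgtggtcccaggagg
H2-Aa (chr17:34287774-34288073, minus strand): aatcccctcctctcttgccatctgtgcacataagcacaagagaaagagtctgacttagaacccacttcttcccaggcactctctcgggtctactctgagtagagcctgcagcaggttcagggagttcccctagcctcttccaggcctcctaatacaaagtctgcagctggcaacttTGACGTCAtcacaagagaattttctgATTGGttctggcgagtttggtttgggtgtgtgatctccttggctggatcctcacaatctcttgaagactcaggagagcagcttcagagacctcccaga
H2-Eb1 (chr17:34305617-34305916, plus strand): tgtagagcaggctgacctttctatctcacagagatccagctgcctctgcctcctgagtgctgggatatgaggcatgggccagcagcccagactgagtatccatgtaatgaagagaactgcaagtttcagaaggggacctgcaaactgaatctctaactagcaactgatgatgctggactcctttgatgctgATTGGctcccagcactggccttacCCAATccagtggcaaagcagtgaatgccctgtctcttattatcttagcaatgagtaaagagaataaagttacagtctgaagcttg

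The H2-K1 and H2-D1 promoters each held the κB letters, GAANNGAAA, a CRE-like core and CCAAT boxes. Aligned without gaps, they shared 176 of 240 bases. The κB letters occurred in 82 of 32851 promoters of the table (0.250%), and together with GAANNGAAA in 10 (0.0304%). GAANNGAAA occurred in 7.52% of all promoters and GAAANNGAA in 8.56%, while TGACG occurred in 20.8% and ATTGG in 37.4%. Of the other members, H2-Q6 and H2-Q7 held the κB letters, with GAANNGAAA beside them. The counts of 82 and 10 include both entries of H2-K1 and those of H2-D1, H2-Q6 and H2-Q7. They are therefore not a background apart from these genes. The H2-Q10 window, of a gene for a class I protein secreted by the liver, held GAANNGAAA but none of the κB, TGACG and ATTGG letters. The B2m window held GAAANNGAA, 2 matches to TGACG and ATTGG. The H2-DMa window held none of the 5, and in the H2-Aa window TGACG was matched on both strands in overlapping letters. These matches describe letters only.

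Islands were found at 21 of the 41 genes in at least 1 library, and the division followed class and gene. No library had an island at 20 genes (48.8%, against 40.0% of all protein-coding genes), 3 genes were marked in all 15 libraries (7.32%, against 9.46%), and 18 were marked in 1 to 14. The 3 constant genes were B2m, Tapbp and H2-DMa. Those never marked were 14 non-classical class I genes, the class II genes H2-DMb1, H2-DMb2, H2-Ob and H2-Eb2, and both class II helpers, Cd74 and Ciita. The 14 class I genes were H2-Q1, H2-Q2, H2-T3 and all 11 genes of the H2-M group other than H2-M3, including the H2-M10 genes known from vomeronasal neurons. A library had islands at 4 to 21 of the 41 genes, with a median of 15 and a mean of 13.6 ± 4.50 (SD, n = 15).

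**Figure D1:**
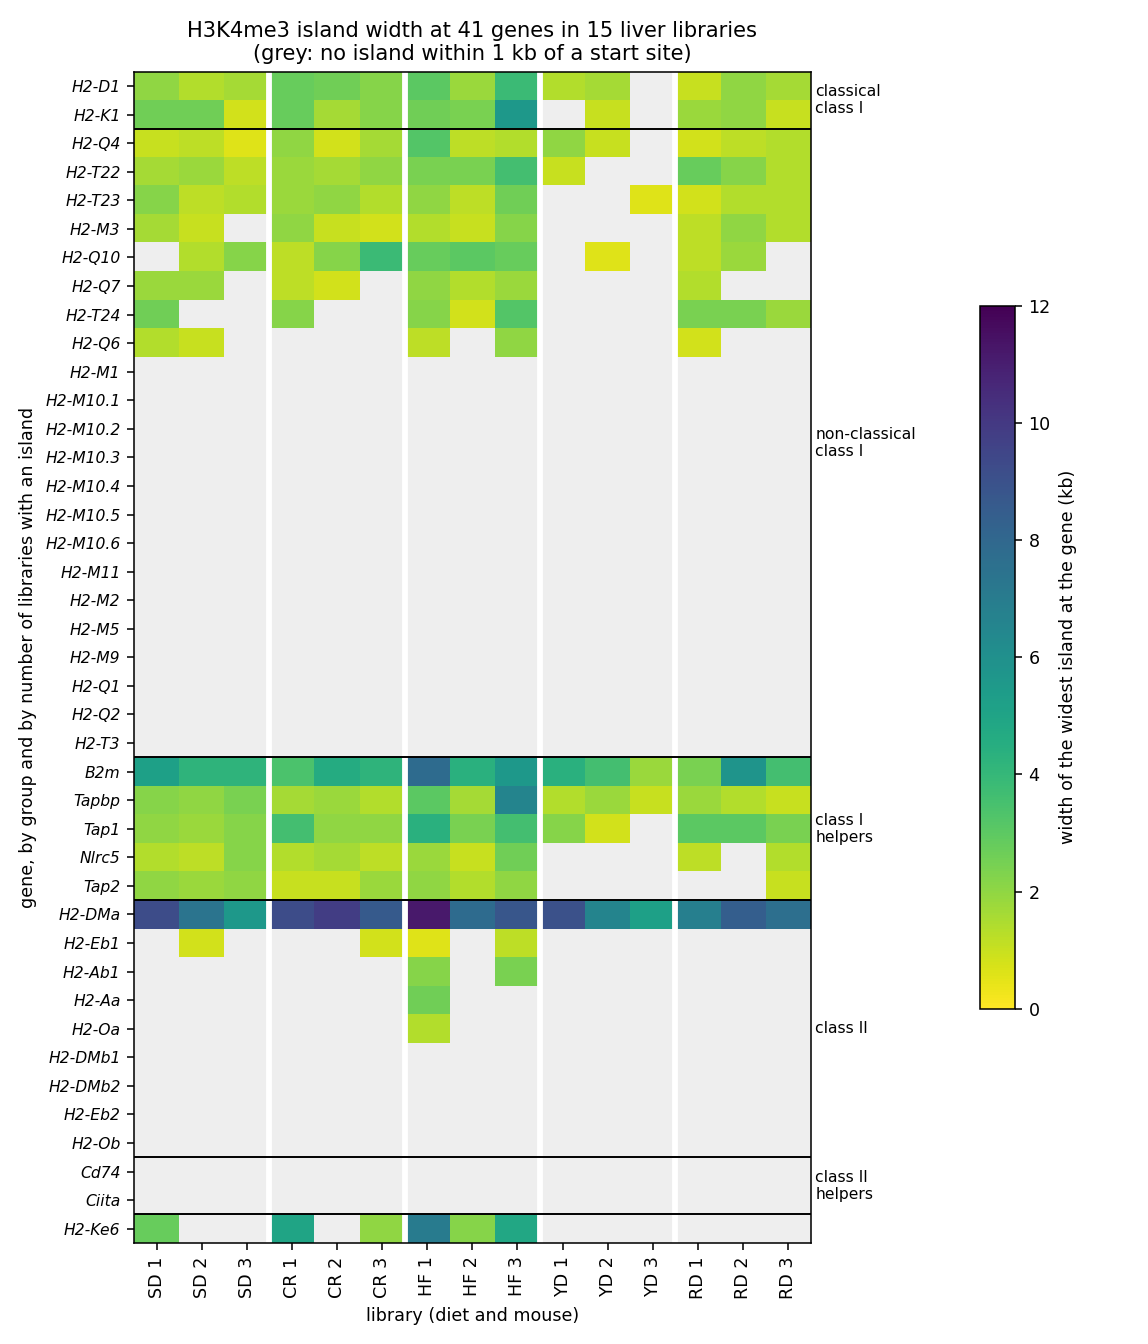
Width in kb (colour) of the widest H3K4me3 island within 1 kb of a start site of each of the 41 genes (rows, by group) in each of the 15 libraries (columns, by diet and mouse), with grey for no island. B2m, Tapbp and H2-DMa have an island in every column, 20 genes have none, and those at H2-Ab1, H2-Aa and H2-Oa are in HF columns alone.

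The classical class I genes were marked in all 12 livers outside YD. At H2-K1 (chr17:33996017-34000347, minus strand), the islands were 2600, 2600 and 800 bp wide in SD, 2800, 1600 and 2200 bp in CR, 2600, 2400 and 5600 bp in HF and 1800, 2000 and 1000 bp in RD, and in YD mouse 2 the width was 1000 bp with no island in mice 1 and 3. At H2-D1 (chr17:35262730-35267499, plus strand), they measured 2000, 1400 and 1600 bp in SD, 2800, 2600 and 2200 bp in CR, 3000, 1800 and 3800 bp in HF, 1400 and 1600 bp in YD mice 1 and 2, none in YD mouse 3, and 1000, 2000 and 1600 bp in RD. The widest islands of both were in HF mouse 3. Some diets did not overlap. At H2-D1, for example, all CR widths were above all SD widths and all HF widths above the YD widths. At H2-K1 all HF widths were above all RD widths. How many of all genes separate in this way was not counted. Lacking an island in some libraries, both genes were outside the main limma fit but entered a looser one, of genes marked in at least 12 libraries. There the log2 width at H2-D1 in CR less SD was 0.61 ± 0.36 (estimate ± SE, limma unadjusted p = 0.111). Neither gene had an adjusted p under 0.05 for width in any comparison of that fit, which did not include HF against YD or RD. The islands of both genes lay over the 5′ end of the gene or began at most 347 bp (H2-K1) and 671 bp (H2-D1) downstream of it. They ranked high, with a median score percentile within the list (100 for the highest-scoring island) of 83.8 for H2-K1 over 13 libraries and 80.6 for H2-D1 over 14.

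Of the 22 non-classical class I genes, 8 were marked in some livers. H2-Q4 islands were found in 14 libraries, with widths of 1000, 1200 and 600 bp in SD, 2000, 800 and 1600 bp in CR, 3200, 1200 and 1400 bp in HF, 2000 and 1000 bp in YD mice 1 and 2, and 800, 1200 and 1400 bp in RD. For H2-T22, marked in 13 libraries, they were 1600, 1800 and 1200 bp in SD, 1800, 1600 and 2000 bp in CR, 2400, 2400 and 3600 bp in HF, 1000 bp in YD mouse 1 alone, and 2800, 2200 and 1400 bp in RD. H2-T23, the Qa-1 heavy chain that presents leader peptides of other class I proteins, was also marked in 13, at 2200, 1200 and 1400 bp in SD, 1800, 2000 and 1400 bp in CR, 2000, 1200 and 2600 bp in HF, 600 bp in YD mouse 3 alone, and 800, 1400 and 1400 bp in RD. All 3 genes were thus marked in every SD, CR, HF and RD mouse, and in 1 or 2 of the 3 YD mice.

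The other non-classical genes were marked less often. H2-M3, which presents formylated bacterial peptides, had islands of 1600 and 1000 bp in SD mice 1 and 2, 2000, 1000 and 800 bp in CR, 1400, 1000 and 2200 bp in HF, none in YD, and 1200, 2000 and 1400 bp in RD. H2-Q10 had islands of 1400 and 2200 bp in SD mice 2 and 3, 1200, 2200 and 3800 bp in CR, 2800, 3000 and 2800 bp in HF, 600 bp in YD mouse 2, and 1200 and 1800 bp in RD mice 1 and 2. Its score percentile ranged from 0.703 in RD mouse 2 to 86.7 in CR mouse 3, a wider span than at the classical genes. H2-T24 was marked in all HF mice (2200, 800 and 3200 bp) and all RD mice (2400, 2400 and 1800 bp), in SD mouse 1 (2600 bp) and CR mouse 1 (2200 bp), and in no YD mouse. H2-Q7 had islands of 1800 and 1800 bp in SD mice 1 and 2, 1200 and 800 bp in CR mice 1 and 2, 2000, 1400 and 1800 bp in HF, and 1400 bp in RD mouse 1. H2-Q6 was marked in 5 libraries, at 1400 and 1000 bp in SD mice 1 and 2, 1200 and 2000 bp in HF mice 1 and 3, and 800 bp in RD mouse 1. H2-Q6 and H2-Q7 are near-identical copies, and only 42.2% and 35.1% of the 50-base words within 1 kb of their start sites occur once in the genome, the lowest shares among the 41 genes. Since ambiguous reads were removed, their islands are uncertain, and the same holds in part for H2-T23 (58.8%), H2-T22 (75.2%) and H2-K1 (84.1%).

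The 20 genes never marked had unique shares of 82.9% to 100% (median 97.3%), against a median of 96.4% for the 13 genes marked in 10 to 15 libraries. H2-T22 shared its island with the start of Gm6034 in 13 of 13 libraries. For such islands the mark cannot be assigned to either gene.

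B2m (chr2:122147686-122153083, plus strand), the light chain common to class I molecules, carried a wide, high-ranking island in every liver. Its widths were 5200, 4200 and 4200 bp in SD, 3400, 4600 and 4200 bp in CR, 7800, 4400 and 5600 bp in HF, 4400, 3600 and 1800 bp in YD and 2400, 5800 and 3600 bp in RD. The highest was in HF mouse 1 and the lowest in YD mouse 3, and all 5 diets overlapped in range. The median score percentile was 98.4, and the best rank was 101 from the top of a list. Tapbp (chr17:33915899-33929292, plus strand) had islands of 2200, 2000 and 2400 bp in SD, 1600, 1800 and 1400 bp in CR, 3000, 1600 and 6600 bp in HF, 1400, 1800 and 1000 bp in YD and 1800, 1400 and 1000 bp in RD. HF mouse 3, at 6600 bp, stood far above the rest. In all 15 libraries an island lay within 1 kb of the coding start sites 3433 to 3929 bp inside the gene record, and the most upstream coding start was reached in 8. In 4 libraries the widest island held the start of Zbtb22. In SD mice 1 and 2 and CR mouse 1 it lay at the upstream starts, apart from the island at those coding starts. In HF mouse 3 it spanned both, and in the other libraries it lay at those coding starts.

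The peptide transporter genes differed from each other. Tap1 islands were present in 14 libraries, at 2000, 1800 and 2200 bp in SD, 3600, 2000 and 2000 bp in CR, 4400, 2400 and 3600 bp in HF, 2200 and 800 bp in YD mice 1 and 2, and 3000, 3000 and 2400 bp in RD. Tap1 shares a bidirectional promoter with Psmb9, an immunoproteasome subunit, and 13 of its 14 islands held the start of Psmb9. Tap2 was marked in all SD (2000, 1800 and 2000 bp), CR (1000, 1000 and 1800 bp) and HF mice (2000, 1400 and 2000 bp), in RD mouse 3 alone (1000 bp) and in no YD mouse. The Tap2 islands began 674 to 1074 bp downstream of the 5′ end of the gene record. In 4 libraries this was over 1 kb, and the gene counted there through an internal start site. Nlrc5 (chr8:94434356-94527272, plus strand) was marked at 1400, 1200 and 2200 bp in SD, 1400, 1600 and 1200 bp in CR, 1800, 1000 and 2600 bp in HF, 1200 and 1400 bp in RD mice 1 and 3, and in no YD mouse. SD, CR and HF livers thus had islands at all 5 class I helpers in 9 of 9 libraries, RD at 3 to 5 and YD at 2 or 3. The mean share of all protein-coding genes marked was also lowest in YD (22.8%) and RD (31.2%), against 39.6% in SD, 43.4% in CR and 51.2% in HF.

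**Figure D2:**
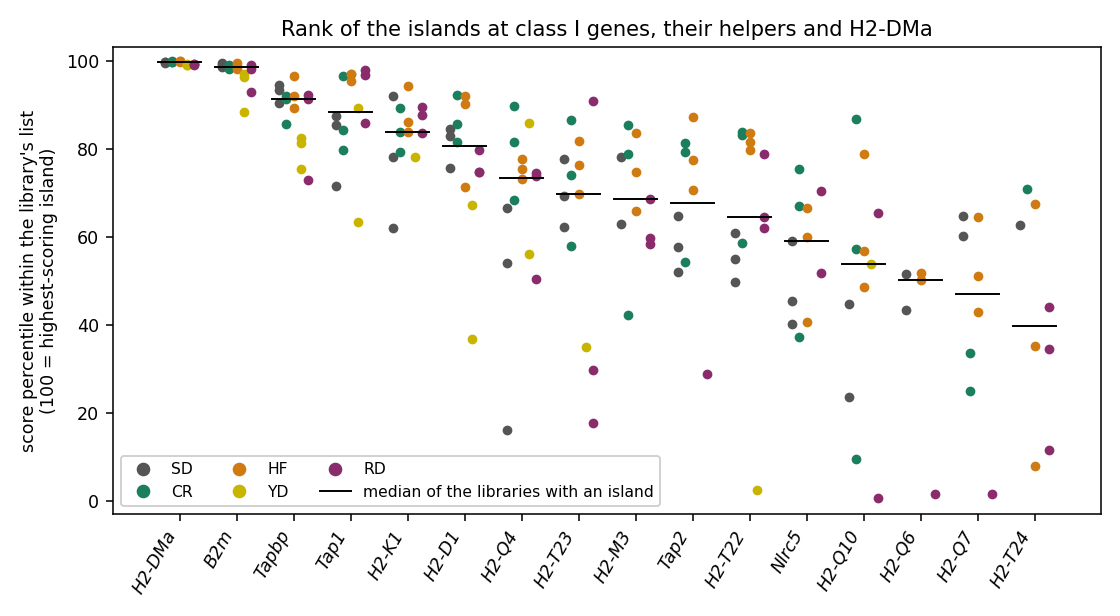
Score percentile within its library's list (vertical axis, 100 for the highest-scoring island) of the best island at each class I heavy chain or helper gene marked in at least 5 libraries and at H2-DMa, with a point per library coloured by diet and a line at the median. H2-DMa and B2m lie at the top with little spread, and H2-Q10 spans from 0.703 to 86.7.

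Class II genes gave a different picture: apart from the upstream starts of H2-DMa, coding start sites were marked only in HF mice 1 and 3. H2-DMa islands were 9200, 7400 and 5600 bp wide in SD, 9200, 9800 and 8600 bp in CR, 11200, 7800 and 8800 bp in HF, 9000, 6600 and 5200 bp in YD and 6800, 8400 and 7600 bp in RD. HF mouse 1 was highest and YD mouse 3 lowest, and the median score percentile was 99.6. All CR widths were above all RD widths, a separation that was not tested or counted over all genes. That island lay at the most upstream start sites and in all 15 libraries also held the start of Brd2, a bromodomain gene. The farther coding start sites of H2-DMa, 16087 and 16113 bp downstream in the gene record, had a separate island in 2 libraries alone: 1200 bp in HF mouse 1 (chr17:34135801-34137000, score percentile 37.4) and 2800 bp in HF mouse 3 (chr17:34135601-34138400, score percentile 27.1). Thus the constant island cannot be assigned to H2-DMa rather than Brd2.

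H2-Ab1, the beta chain of the H2-A molecule, was marked in the same mice, at 2200 bp in HF mouse 1 (chr17:34263201-34265400) and 2400 bp in HF mouse 3 (chr17:34263201-34265600), starting at its coding start sites. The alpha chain H2-Aa had an island of 2600 bp in HF mouse 1 alone (chr17:34286401-34289000), and H2-Oa had an island of 1400 bp in HF mouse 1 alone. Their score percentiles ran from 13 to 55.1, far below those of B2m. H2-Eb1 islands of 800 bp in SD mouse 2, 800 bp in CR mouse 3, 600 bp in HF mouse 1 and 1200 bp in HF mouse 3 lay at an internal start site of a retained-intron transcript, 3708 bp downstream, and reached none of its coding start sites. Cd74 and Ciita, which class II expression needs, were at no island in 15 of 15 libraries, with 99.4% and 99.96% of their 50-base words unique.

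**Figure D3:**
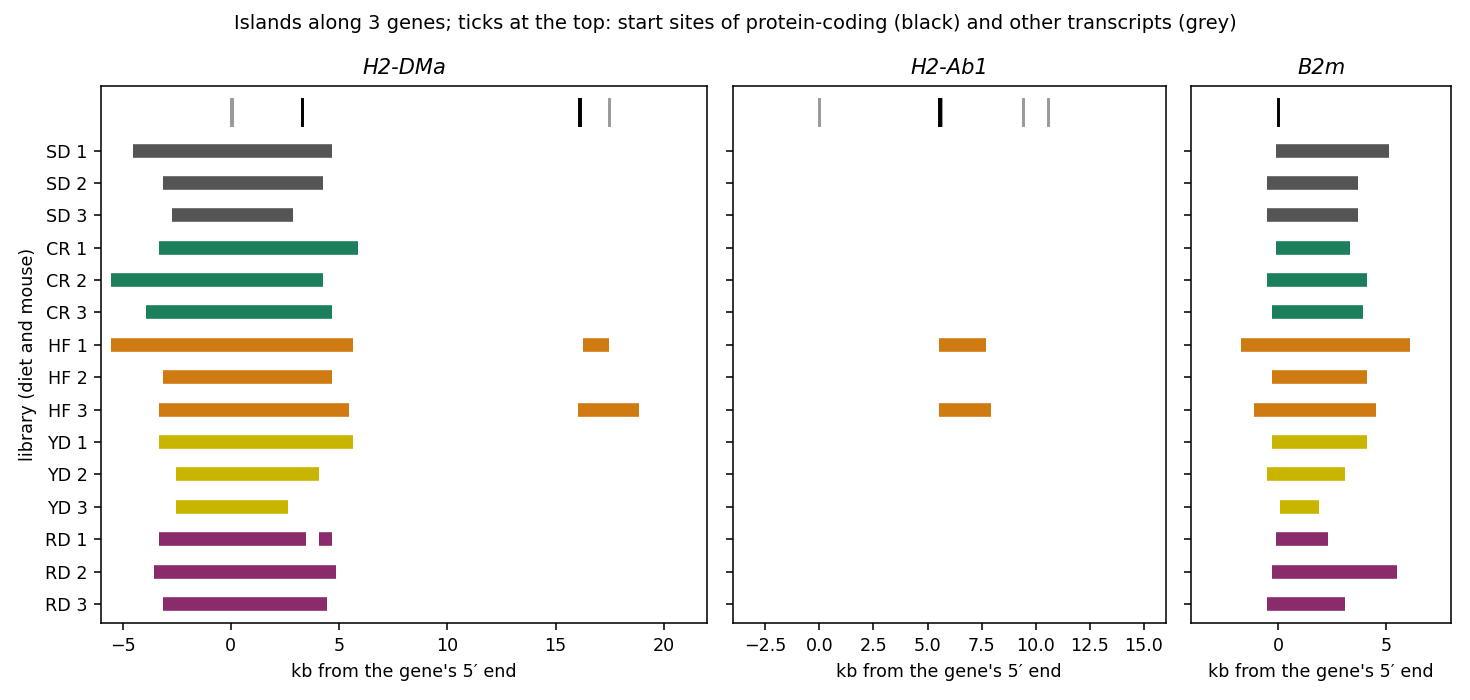
Islands (bars, coloured by diet) of the 15 libraries along H2-DMa, H2-Ab1 and B2m, in kb from the 5′ end of each gene record, with ticks for start sites of protein-coding (black) and other (grey) transcripts. The wide H2-DMa island lies at the upstream starts in all libraries, while the islands at its farther coding starts and at those of H2-Ab1 are in HF mice 1 and 3 alone.

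Markers of the cells known for class II, and of leukocytes in general, were examined in the same libraries, and many of them had no island in any library. Of 7 Kupffer cell genes, 3 were marked in HF mouse 1 (Clec4f, Cd5l and Adgre1), 1 in HF mouse 3 (Clec4f) and none in the other 13 libraries, and Vsig4, Timd4, Marco and Csf1r had no island anywhere. Of 3 pan-leukocyte genes, 3 were marked in HF mouse 1, 2 in HF mouse 3, and 0 to 2 elsewhere, and of 5 sinusoidal endothelial genes, 5 and 4 were marked in these mice against 0 to 3 elsewhere. Of the B cell genes Cd79b, Ms4a1, Cd79a and Pax5, Cd79b was marked in HF mouse 1, and the others had no island in any library. Of 5 dendritic cell genes Zbtb46 alone was marked, in 9 libraries, with Flt3, Xcr1, Clec9a and Itgax at none, and of 5 T cell genes Lck alone, in SD mouse 2 and these HF mice. HF mice 1 and 3 also had the highest shares of all genes marked, 54.6% and 51.5%. The part of other cells, depth or background in the class II islands was not tested.

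Within each library, class I heavy chain genes were marked more often than class II genes in 13 of 15 libraries. The class I share was 30.6% ± 11.4 (SD, n = 15) and the class II share 17% ± 12.5, a difference of 13.5 ± 13.1 percentage points. The exceptions were HF mouse 1 (41.7% of class I and 55.6% of class II) and YD mouse 3 (4.17% and 11.1%). Without H2-DMa, whose island holds the Brd2 start, the difference was 23.9 ± 14.1 points and was above 0 in 14 libraries, with HF mouse 1 at -8.33. Without HF mice 1 and 3, it was 16 points over 13 libraries with H2-DMa counted. Split by diet, with H2-DMa counted, the difference was 18.5 ± 6.85 points in SD and 18.5 ± 10.2 in CR (SD, n = 3 each). It was 6.94 ± 20.2 in HF, 0 ± 6.36 in YD and 23.6 ± 6.36 in RD, so YD showed no class difference on average. The class I share itself stood 7.09 points below that of all genes on average, and was above it only in CR mouse 1 and RD mice 1 and 3. By diet, SD mice had a class I share of 33.3% ± 7.22, CR mice 33.3% ± 4.17, HF mice 40.3% ± 2.41, YD mice 11.1% ± 6.36 and RD mice 34.7% ± 6.36 (SD, n = 3 each). For all genes the corresponding means were 39.6%, 43.4%, 51.2%, 22.8% and 31.2%. In YD and HF, class I thus lay on the same side of SD as all genes did. In CR class I equalled SD while all genes were above it. In RD class I was slightly above SD, within the spread between mice, while all genes were below it. No test was made of these shares, since the genes were chosen with results of these data known.

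**Figure D4:**
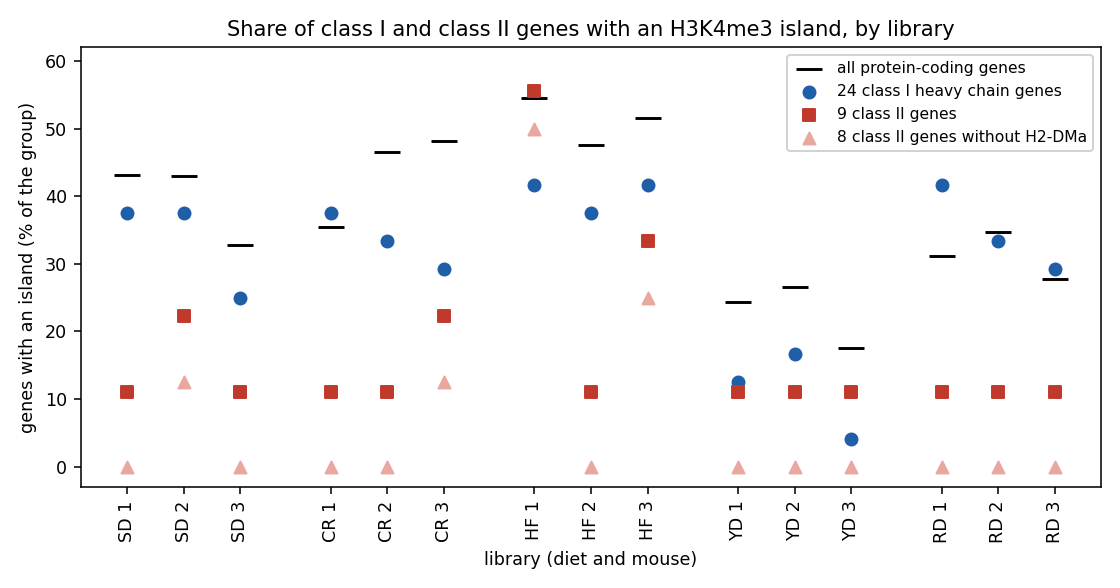
Share of genes with an island (vertical axis, % of each group) in each of the 15 libraries for 24 class I heavy chain genes, 9 class II genes, 8 class II genes without H2-DMa, and all 21755 protein-coding genes. The class II squares sit at 11.1%, which is H2-DMa alone, except in SD mouse 2, CR mouse 3 and HF mice 1 and 3, and YD libraries are lowest for class I and for all genes.

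The first question of the design was whether the presence of an island depended on diet. In YD, 6.33 ± 2.08 of the 41 genes were marked, against 14.7 ± 2.31 in SD, 15 ± 1.00 in CR, 18.7 ± 2.52 in HF and 13.3 ± 1.53 in RD (SD, n = 3), with YD below all others in every mouse. In percent, YD had 15.4% of the members and 22.8% of all genes, and HF 45.5% and 51.2%. An exact permutation test over the diet labels was run for each of 10985 genes marked in 1 to 14 libraries. After Benjamini-Hochberg adjustment it called 0 of the 18 members tested, and 0 genes at all (0.0%). The smallest p any gene reached was 0.002, so that a call would have needed many genes at that level. At an unadjusted p under 0.05, it listed 3 of the 18 members against 11.2% of all genes tested. These were Tap2 (exact permutation p = 0.01998, adjusted p = 0.259), Nlrc5 and H2-M3 (exact permutation p = 0.04396, adjusted p = 0.392 each), all 3 without an island in YD.

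Counted by a simple rule, genes were lost in a diet when at least 2 of 3 SD mice and none of that diet had an island, and gained in the reverse case. YD lost 5 of 41 members, H2-Q6, H2-Q7, H2-M3, Tap2 and Nlrc5 (12.2%, against 9.46% of all genes), and gained 0 (0.0368%). The count of 5 was 2 without SD mouse 1, 2 without SD mouse 2 and 2 with equal numbers of islands per list. HF gained 1, H2-Ab1 (4.69% of all genes were gained), and lost 0 (0.0735%). The HF count was 0 without HF mouse 1 or 3, 3 without SD mouse 1 and 2 without SD mouse 2. CR gained 0 (1.79%) and lost 1, H2-Q6 (0.336%), a gene of low unique share, and the loss was not counted without SD mouse 2. RD gained 0 (0.221%) and lost 0 (3.92%) against SD, a sum that was 1 without SD mouse 1 or RD mouse 3 and 2 without RD mouse 1. RD against YD, the comparison of corn with and without anthocyanins, gained 3, H2-T24, H2-M3 and Nlrc5 (3.81%), and lost 0 (0.244%), and without YD mouse 2 the count was 5. With an island required in all 3 mice, YD lost 2 members, Tap2 and Nlrc5 (4.88%, against 3.5% of all genes), and RD gained 2 over YD, H2-T24 and H2-M3 (4.88%, against 1.09%). With 3 mice against 3, no such count can reach a two-sided exact p below 0.1.

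The next question was whether islands changed in width. The 3 members marked in every library were tested with limma, with 2059 genes in the fit, and 0 members and 0 genes (0.0%) were called in each of the 5 comparisons after Benjamini-Hochberg adjustment. At an unadjusted p under 0.05, 0 members were listed, and the share of genes was 2.38% in the CR comparison, 6.07% in HF, 17.1% in YD and 7.09% in RD, all against SD, and 5.83% for RD against YD. Log2 widths in HF less SD were 0.36 ± 0.38 for B2m and 0.53 ± 0.43 for Tapbp (estimate ± SE, limma adjusted p = 0.802 and 0.782), against a median of 0.34 over the 2059 genes. The Tapbp value rests on HF mouse 3, since without that mouse it was -0.0020. Without YD mouse 1, 350 genes but no member were called for YD against SD. In YD less SD, they were -0.56 ± 0.38 and -0.69 ± 0.43 (limma adjusted p = 0.399 and 0.378), against a median of -0.49. H2-DMa moved by 0.34 ± 0.30 in HF and -0.10 ± 0.30 in YD. At Tapbp the SD widths (2000 to 2400 bp) were above all those of CR, YD and RD without overlap, yet none of these differences passed the threshold. How many of the 2059 genes separate in this way was not counted. Their median log2 width against SD was 0.14 in CR, -0.49 in YD and -0.29 in RD. These Tapbp widths do not all measure the same island. The widest was the upstream one in SD mice 1 and 2 and CR mouse 1, and one spanning both in HF mouse 3. The Tapbp width differences therefore compare unlike regions.

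The score percentile within its list was tested the same way. A percentile also depends on how many islands the list holds, 7825 to 10906 in YD and 10501 to 23107 in SD. The test called 68 genes (3.3%) for YD against SD, 3 (0.146%) for RD against YD and 0 (0.0%) for the other 3 comparisons, with 0 members in any. At an unadjusted p under 0.05 the share of genes was 1.65% for CR, 1.75% for HF and 4.61% for RD against SD, and 19.6% for RD against YD, with no member. B2m had percentiles of 99.3, 98.4 and 99.0 in SD and 96.2, 97 and 88.2 in YD, which do not overlap. The difference was -5.14 ± 1.91 points (limma adjusted p = 0.116). For Tapbp, 93.3, 94.4 and 90.4 in SD stood against 75.3, 81.3 and 82.5 in YD, again without overlap, a difference of -13.0 ± 5.93 points (limma adjusted p = 0.184). Both had an unadjusted p under 0.05, as had 26.0% of genes in this comparison, and the median over all genes was -11.0 points. How many of all genes separate without overlap was not counted here either. Without YD mouse 2 the B2m difference was -6.74 points and passed the threshold (limma adjusted p = 0.0470). The number of genes called for YD against SD was 178 to 224 without any 1 YD mouse, 3 to 29 without any 1 SD mouse, 11 to 26 without any 1 HF mouse, and 21 and 34 without CR mice 2 and 3. It was 9 with the start site inside the island, 2 on log10 ranks and 0 with the ChIP-named libraries. For RD against YD it was 85 to 114 without any 1 YD mouse. H2-DMa differed by -0.59 ± 0.36 points (limma adjusted p = 0.296), and passed the threshold only when the lower-scoring islands of each list were dropped.

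Other genes of the pathway were taken from a list of 25 symbols, of which 24 were found. All 24 were marked in at least 1 library, against 59.96% of all protein-coding genes, and 7 were marked in all 15 libraries, against 9.46%: the lectin chaperones Calr and Canx, their partner Pdia3, the immunoproteasome subunit Psmb10, the proteasome activator Psme2, the interferon regulatory factor Irf2, and Rfxank of the complex that binds class II promoters. The exact permutation test called 0 of 17 tested and listed 2 at an unadjusted p under 0.05 (against 11.2% of all genes). These were Psmb8, an immunoproteasome subunit, and Rfxap, another part of that complex, both marked in 3 of 3 mice of SD, CR, HF and RD and in no YD mouse (exact permutation p = 0.01099, adjusted p = 0.259). Ctss, the protease that trims the invariant chain, was marked in 1 library, an HF mouse. Of other factors that act on class II promoters, Rfx5 was marked in 10 libraries, Rfxap in 12, Creb1 in 12, Nfya in 14 and Nfyb in 7 (none of them YD or RD), while Ciita was marked in none.

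Marked and unmarked members differed in the CpG number of their promoters. The 300-base windows held a median of 14 CpG (range 5 to 29) in the 11 genes marked in 10 to 15 libraries, 7 in the 6 genes marked in 1 to 9, and 2 (range 0 to 5) in the 17 genes never marked. Over all protein-coding genes with an entry the medians were 22, 17 and 4, so members lay below other genes of the same marking. H2-DMa had the highest number, 29, at the entry beside or inside the constant island, and 0 at another entry of the gene, and the 7 class II genes other than H2-DMa had 0 to 3. H2-K1 had 14, H2-D1 and H2-Q10 19 each, B2m 14, H2-T23 5 and H2-M3 9. Among the class I genes with an entry, the 9 marked in 4 or more libraries had 5 to 19 CpG and the 13 never marked had 0 to 5, and these overlap at the value of H2-T23. Interferon-response letters of either spacing were found in all 9 of the former and in 1 of the latter, H2-M2. ATTGG was found in 15 of the 17 windows of genes never marked, so it did not separate them. The points share sequence through gene duplication and are given as a description without a test.

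**Figure D5:**
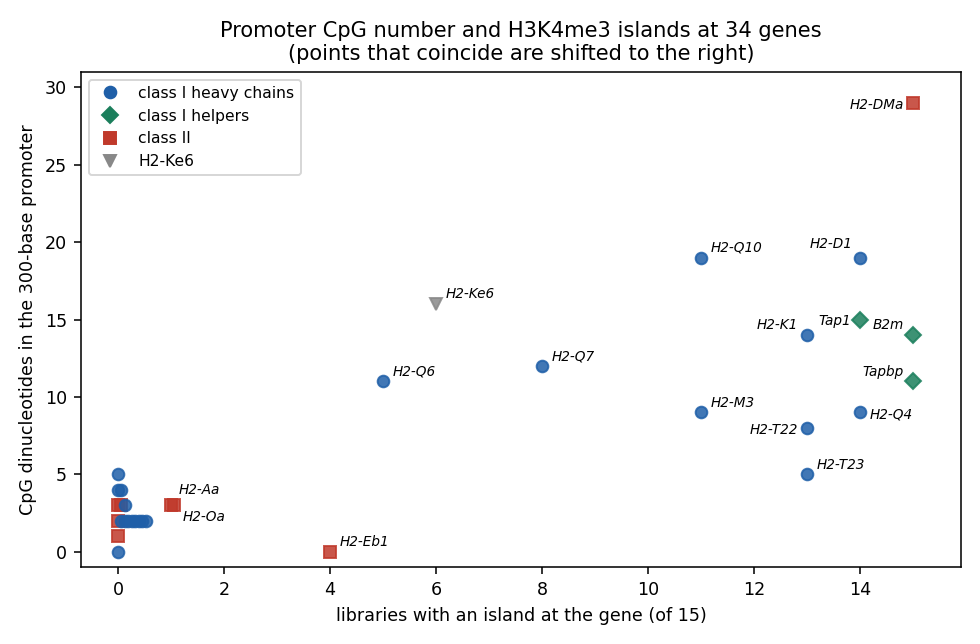
CpG dinucleotides in the 300-base RefSeq promoter (vertical axis) against the number of the 15 libraries with an island at the gene (horizontal axis) for the 34 members with an entry, coloured by class. The unmarked genes lie at 0 to 5 CpG, H2-DMa at 29, and H2-T23 is the marked class I gene with the fewest, at 5.

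H2-Ke6 was marked in 6 libraries, at 2800 bp in SD mouse 1, 5000 and 2000 bp in CR mice 1 and 3, and 7000, 2200 and 4800 bp in HF, and in no YD or RD mouse (exact permutation p = 0.1099, adjusted p = 0.410). In 4 of these, the island held the start of Ring1, and in 1 each those of Rxrb and Slc39a7. The islands of 2000 bp in CR mouse 3 and 2200 bp in HF mouse 2 held the Ring1 start but no H2-Ke6 start site. They lay 2060 bp from the 5′ end of the H2-Ke6 record.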

How the data were processed

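The files used are the 15 lists of SICER islands that the authors deposited, 1 per library with no pooling, each with chromosome, start, end and island score. Per the study's methods and the labels, single reads were aligned to mm10 with BWA, filtered with SAMtools (unmapped, ambiguous and duplicate reads and other chromosomes removed), and islands were called in each library in windows of 200 bp. Tool versions are not given in the sources used here. The deposited score sums enrichment over windows, is not scaled between libraries, and served only as a percentile within its list. Width grows with depth and background too.

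Start sites of 21755 protein-coding genes were those of GENCODE M21 on chromosomes 1 to 19 and X. The widest island within 1 kb gave the width and the best gave the percentile. Presence was tested per gene by exact permutation of the diet labels over the 15 libraries, and log2 width and percentile with limma 3.58.1 (R 4.3.3, trend, all 15 libraries in 1 fit). Benjamini-Hochberg adjustment ran over all genes tested, with a threshold of 0.05. Percentages of marked genes have no counting interval, since reads per island were not used here, and errors are those between mice. Reads per library assume an effective genome fraction of 0.74. Libraries came from separate mice. PATChIP stands in the names of 5 libraries and ChIP in those of the other 10, and only 1 CR and 1 HF library are among the latter. The PATChIP names are those of CR mice 1 and 2, HF mice 2 and 3 and RD mouse 1, and no SD or YD library has one. Name form is thus partly confounded with diet, and its meaning is not stated in the labels. All counts and fits were repeated under the alternatives of the closing section, and the code was tested on simulated data. Python 3.11.15, numpy 2.4.6, pandas 2.3.3 and matplotlib 3.10.9 were used. The members, lists, markers and motifs were chosen with earlier results of these data known. Widths by library are given for the genes marked in at least 4 libraries, the class II chains and the helpers. Read signal and expression were not analysed here.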

Additional observations from a re-analysis of the deposited data

How the results depend on the processing

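Of the counts of members called by the presence, width and score percentile tests, 292 kept their value under the alternatives and 2 did not, both for score percentile in YD against SD, where 0 became 1. This happened when islands scoring below each list's median were dropped (H2-DMa), and leaving out each library gave 0 to 1, with 1 (B2m) without YD mouse 2. Over all genes, that comparison called 68, against 50 with the median-score filter, 224 without YD mouse 2, 3 without SD mouse 1, 9 with the start site inside the island and 2 on log10 ranks. The log2 width of Tapbp in HF less SD ranged from -0.0020 (without HF mouse 3) to 1.02, and was the only single-gene value to reverse.

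With a replicate block, 0 members were called in every test, and score percentile in YD against SD called 36 genes. No pairing by number is stated: deviations of same-numbered mice correlated at -0.096 to 0.13 over 15 pairs, of which 3 were over 0.1.

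Members marked per library moved with the 7825 top islands of each list (SD 10.7, CR 12.7, HF 14.3, RD 9.0), with the median-score filter (SD 12.0, CR 13.3, HF 15.3, RD 10.3), with the 5′ end alone (CR 13.7), with the start inside the island (RD 11.3) and, chosen after seeing the data, without HF mice 1 and 3 (HF 16). Class I less class II moved to 11.1 (SD) and 6.94 (RD) points with the top islands, 12.5 (RD) with the median-score filter, 15.3 (RD) with the start inside, 6.94 (CR) and -13.9 (HF) with ChIP-named libraries, and 29.2 (SD), 29.2 (CR), 11.1 (YD) and 34.7 (RD) without H2-DMa, also chosen after seeing the data. Genes gained or lost against SD numbered 2 (CR) and 2 (RD) with the median-score filter, 0 (CR), 0 (HF) and 2 (YD) when all 3 mice were required, 0 (HF) and 1 (RD) at the 5′ end, 2 (YD) and 1 (RD) with the top islands, 1 (RD) with the start inside and 2 (RD) with ChIP-named libraries. Leaving out each library gave 0 to 1 for CR, 0 to 3 for HF, 2 to 7 for YD, 0 to 2 for RD and 2 to 5 for RD against YD. The ChIP-named libraries hold 1 CR and 1 HF mouse, so gained or lost genes were not counted there for these diets. The causes were not tested.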

Other observations

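The prefix H2- is also carried by 11 genes that the annotation does not class as protein-coding, and these were left out of the report. Islands were found at 4 of them and none at the other 7, which include H2-Ea-ps, the broken alpha chain of H2-E in this strain. The pseudogene H2-K2 (chr17:33974659-33978827) was marked in 13 of 15 libraries, with widths of 600 to 3200 bp, in all 3 mice of SD, CR, HF and YD and in 1 of 3 RD mice. No protein-coding start site lay inside these islands. H2-K2 was thus marked in every YD mouse, where its neighbour H2-K1 was marked in 1 of 3. The polymorphic pseudogene H2-T10 (chr17:36115876-36121465) was marked in 10 libraries, in 2 SD, 1 CR, 3 HF, 1 YD and 3 RD mice, and all 10 islands also held the start of Gm19684. H2-Bl was marked in 2 HF mice and H2-T-ps in 1 HF mouse. These genes were looked at after the values of the report were known, and none of them was tested.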
